A study of Arabidopsis thaliana with 19 samples.

Results

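In the GFP-negative root tip cells of Arabidopsis thaliana PET111:GFP seedlings, 21 loci were higher in every library of the ages up to 4D 16H than in any later library, and 36 loci were higher in every library from 5D on. These 57 loci are described here. They were chosen on their measured values from 18087 loci whose mean reached 1 FPKM (fragments mapped to a locus, scaled to its length in kilobases and to the library's mapped reads), out of 33201 loci in the table. A locus was taken if all 8 libraries of 4D, 4D 8H and 4D 16H lay above, or all lay below, the 11 libraries of 5D, 5D 8H, 5D 16H and 6D, with ties excluded, and 1 locus was set aside by the rule. Of all loci tested, 0.116% met the rule with the higher values up to 4D 16H and 0.199% with the higher values from 5D. The difference between the sides is therefore how the loci were chosen, and it is given as a description with no test.

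The loci higher up to 4D 16H included enzymes of lipid and membrane metabolism (ADS1, AT1G06090, SQD2 and SGT), the small peptide gene GASA4 and the channel gene NLM1. The loci higher from 5D included the lectin genes PBP1, JAL33 and AT5G35940, genes of carbohydrate metabolism and transport (TPS10, BMY3 and STP7), the photoreceptor gene PHYE, the meristem gene OBE2 and the kinase gene CIPK23. Most of the differences were modest. The mean of the higher side divided by the mean of the lower side had a median of 1.52 (range 1.198 to 2.30) in the 21 loci and of 1.33 (range 1.17 to 2.04) in the 36 loci. None of the 57 loci was listed at 0 in any library. Of the loci just named, SQD2 and BMY3 no longer met the rule under either upper quartile scaling or quantile normalization, AT1G06090 and TPS10 did not under upper quartile scaling, and PBP1 did not under quantile normalization.

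All seedlings carried PET111:GFP, a marker of the differentiated columella of the root cap. The sorted GFP-negative protoplasts were thus the remaining cells of the root tip, a population that, per the study, consists largely of stem cells. The ages were 4D, 5D and 6D (full days of growth) and, with 8 or 16 further hours, 4D 8H, 4D 16H, 5D 8H and 5D 16H, which makes 7 in all, with 2 libraries at 4D 8H and 5D 16H and 3 at each other age. The study calls these biological replicates, grown on sucrose medium in long days and harvested at the same time of day, and no treatment or second genotype was part of the course.

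The root meristem is renewed by stem cells around the quiescent centre, which are fed with sugar from the shoot and with minerals from the medium. In plants short of phosphate, phospholipids of the membranes are partly replaced by galactolipids and sulfolipid. A shortage of sugar raises a known set of genes that includes asparagine synthetase and some, but not all, class II trehalose phosphate synthases. Roots of the Brassicaceae also hold ER bodies, compartments filled with the beta-glucosidase PYK10, which binds jacalin-related lectins such as PBP1.

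Depth estimated from the steps between low FPKM values was 10.3 to 38.5 M reads in 18 libraries and 1.21 M reads in 5D 16H replicate 2. That library was listed at 0 for 33 of the 9617 loci whose median reached 10 FPKM, against 1 to 10 in each other library. The quiescent centre gene WOX5 ranged from 1.095 to 9.06 FPKM over all libraries. Between the later ages and the ages up to 4D 16H, 6.72% of all loci rose and 11.4% fell (limma, adjusted p under 0.05 over all loci). Of the marker genes in the same contrast, 6 of 15 quiescent centre and meristem genes fell and 1 rose, 1 of 5 root cap genes fell, 2 of 10 root hair genes rose, 1 of 8 non-hair genes rose and 1 fell, 3 of 12 xylem genes fell, 1 of 7 phloem genes fell and 1 of 5 pericycle genes rose. Without 5D 16H replicate 2 the root cap, root hair, non-hair and pericycle counts were 0 except for the 1 non-hair gene that fell, and without 4D replicate 3 the root hair count was 0 as well. None of 9 endodermis genes passed, with 1 at an unadjusted p under 0.05. Whether or not it passed, the difference was above 0 in 10 of 10 root hair, 8 of 9 endodermis and 3 of 8 non-hair genes. For pericycle, quiescent centre and meristem, and root cap genes this count was 2 of 5, 4 of 15 and 1 of 5. For phloem and xylem genes it was 1 of 7 and 0 of 12, against 7586 of all 18087 loci. Summed levels overlapped between the sides for all of these lists, with 123 to 165 FPKM up to 4D 16H and 102 to 141 FPKM later for the quiescent centre list, and 1044 to 2658 and 993 to 3004 FPKM for the endodermis list. No marker was at 0 in every library. The part of these cell types in the levels of the 57 loci was not tested, and in bulk samples fewer cells of a type and less RNA per cell cannot be told apart.

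**Figure D1:**
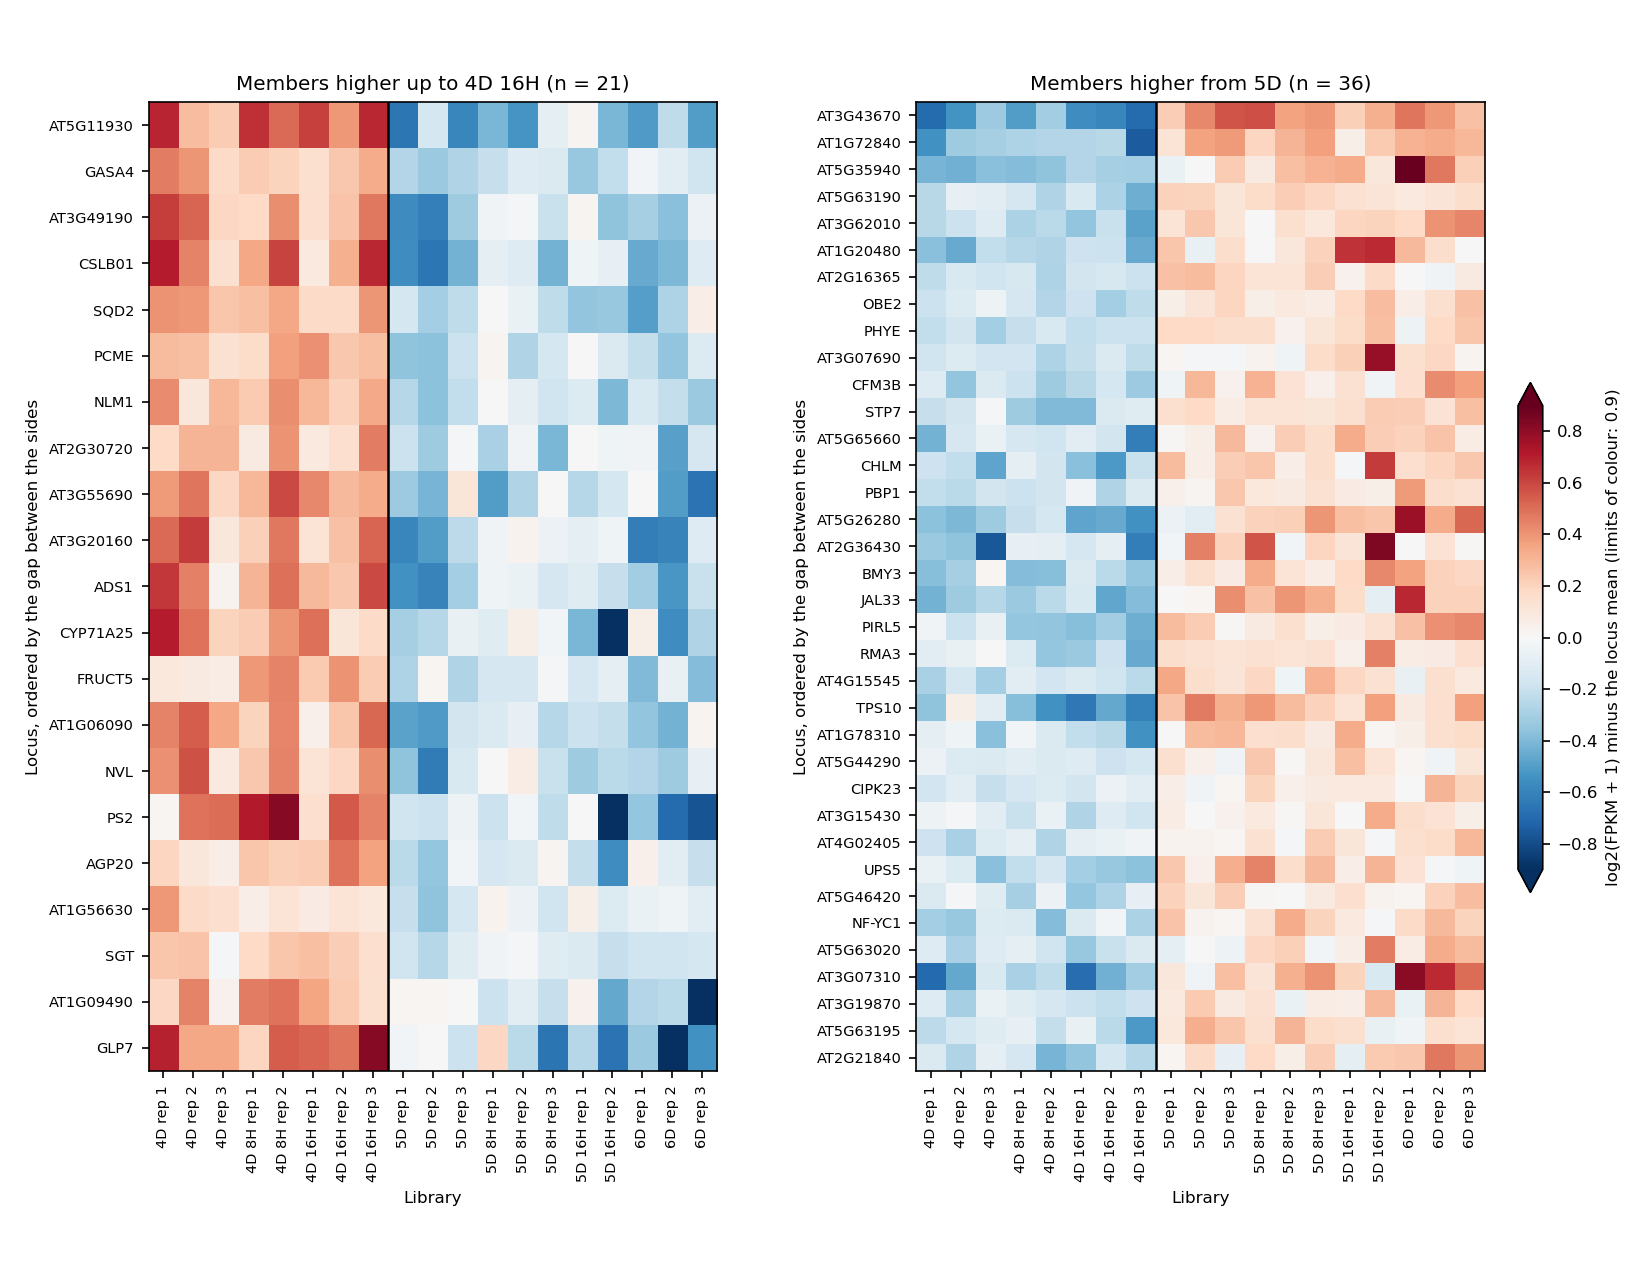
Level of the 57 loci in the 19 libraries, 1 row per locus and 1 column per library in order of age, as log2(FPKM + 1) minus the mean of the row, with the colour scale stopping at 0.9 in both directions. The black line separates 4D 16H from 5D, and the sign of the rows turns at that line because the loci were chosen by it.

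The start regions of 6 loci are shown because they carry a W-box core, P1BS element or G-box and because the loci recur in the results. The sequences run 5′ to 3′ from 250 bases before to 50 bases after the first base of the gene (RefSeq, TAIR10.1), and capitals mark the element. For ADS1 (chr1:1843213-1843512, plus strand), AT1G06090 (chr1:1846451-1846750, plus strand) and SQD2 (chr5:90068-90367, minus strand) the capitals mark the W-box core, TTGACC or TTGACT on either strand. For PS2 (chr1:27466299-27466598, minus strand) and AT3G43670 (chr3:15566817-15567116, plus strand) they mark the P1BS element GNATATNC. For BMY3 (chr5:6225706-6226005, plus strand) they mark the G-box CACGTG.
ADS1: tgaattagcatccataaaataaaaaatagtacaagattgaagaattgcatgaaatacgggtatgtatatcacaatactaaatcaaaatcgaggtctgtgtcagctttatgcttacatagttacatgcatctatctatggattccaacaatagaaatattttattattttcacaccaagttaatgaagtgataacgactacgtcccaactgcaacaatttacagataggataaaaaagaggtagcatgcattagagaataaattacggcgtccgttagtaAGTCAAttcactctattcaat
AT1G06090: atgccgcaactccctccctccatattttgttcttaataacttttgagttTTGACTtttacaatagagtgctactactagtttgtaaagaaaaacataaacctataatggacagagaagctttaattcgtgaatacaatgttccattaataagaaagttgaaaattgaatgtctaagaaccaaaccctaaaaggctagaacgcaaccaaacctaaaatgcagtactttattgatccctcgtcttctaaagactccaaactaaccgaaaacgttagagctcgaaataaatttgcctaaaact
SQD2: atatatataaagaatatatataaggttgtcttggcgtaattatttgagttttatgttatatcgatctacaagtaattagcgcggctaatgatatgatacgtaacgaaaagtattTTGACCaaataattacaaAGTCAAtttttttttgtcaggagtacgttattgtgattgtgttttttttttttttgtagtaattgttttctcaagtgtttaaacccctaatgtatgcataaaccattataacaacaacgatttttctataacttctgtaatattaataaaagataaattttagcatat
PS2: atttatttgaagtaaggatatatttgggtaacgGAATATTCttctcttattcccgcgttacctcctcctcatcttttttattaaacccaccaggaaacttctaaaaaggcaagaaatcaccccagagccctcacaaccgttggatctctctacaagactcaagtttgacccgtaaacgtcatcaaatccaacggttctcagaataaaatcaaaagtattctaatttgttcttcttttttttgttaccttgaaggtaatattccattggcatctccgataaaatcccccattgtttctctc
AT3G43670: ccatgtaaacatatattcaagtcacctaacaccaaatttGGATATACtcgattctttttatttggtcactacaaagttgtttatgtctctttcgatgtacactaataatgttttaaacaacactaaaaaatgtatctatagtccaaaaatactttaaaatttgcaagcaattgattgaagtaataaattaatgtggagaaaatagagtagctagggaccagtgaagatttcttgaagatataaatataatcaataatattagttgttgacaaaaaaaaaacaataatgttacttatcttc
BMY3: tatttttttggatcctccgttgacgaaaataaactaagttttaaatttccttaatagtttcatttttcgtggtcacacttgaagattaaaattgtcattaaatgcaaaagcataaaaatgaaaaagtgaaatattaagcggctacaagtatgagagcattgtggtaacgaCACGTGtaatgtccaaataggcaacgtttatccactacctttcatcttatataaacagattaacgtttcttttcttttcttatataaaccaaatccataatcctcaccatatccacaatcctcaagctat

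A W-box core was present in 11 of the 21 windows of loci higher up to 4D 16H (52.4%), in 8 of the 36 windows of loci higher from 5D (22.2%) and in 33.2% of 18010 windows of tested loci. With 0 at the first base of the gene it began at 29 in ADS1, at -201 in AT1G06090 and at -136 and -118 in SQD2. The P1BS element, which was added to the search after the loci were known, was found in 3 of 21, 2 of 36 and 6.19% of windows. In PS2 it began at -217, where it overlapped a match to the heat shock element GAANNTTC, and in AT3G43670 at -211. The G-box, which is also a match to the E-box CANNTG, was found in 1 of 21, 3 of 36 and 8.95% of windows and began at -80 in BMY3. The site II element (TGGGCC or TGGGCT) was found in 1 of 21, 7 of 36 and 25.9% of windows, and the telo box (AAACCCTA) in 3 of 21, 1 of 36 and 5.49%. These shares are descriptions of the letters in the windows.

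Among the loci higher up to 4D 16H, the enzymes of lipid metabolism included 2 neighbouring desaturase genes. ADS1 encodes a delta 9 desaturase, an enzyme that places a double bond in an acyl chain, and AT1G06090 encodes a protein of the same family. They lie 389 bases apart on the plus strand of chromosome 1. AT1G06090 had the highest mean of all 57 loci, 1500 FPKM. Its lowest, median and highest values were 1508, 1916 and 2133 FPKM up to 4D 16H and 1022, 1254 and 1484 FPKM later. ADS1 was far lower on the same scale per length, with 121, 155 and 185 FPKM up to 4D 16H and 78.0, 103 and 116 FPKM later. Both genes had their lowest time-point mean at 5D, with 84.9 ± 9.65 FPKM for ADS1 and 1122 ± 153 FPKM for AT1G06090 (SD, n = 3).

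SQD2, which catalyses the last step of sulfolipid synthesis, had 171.5, 189 and 202 FPKM up to 4D 16H and 108, 130 and 159 FPKM later. Its means went from 181 ± 16.7 FPKM in the 4D 16H libraries to 130 ± 6.74 in those of 5D (SD, n = 3 each). PS2, a phosphatase gene induced by phosphate starvation, had 23.4, 33.0 and 41.6 FPKM up to 4D 16H and 10.9, 20.08 and 23.1 FPKM later. The sides of PS2 were separated by 1.47% of the lower side's highest value, so that the lowest library up to 4D 16H and the highest later library nearly met. SGT, a glycosyltransferase gene, had 53.8, 64.1 and 65.6 FPKM against 45.2, 48.5 and 53.6 FPKM. AT3G49190, whose product resembles the wax ester synthase WSD1, had 467, 532 and 646 FPKM against 273, 342 and 426 FPKM. The thioesterase family gene AT2G30720 and the terpenoid synthase family gene AT3G20160 were higher by ratios of 1.35 and 1.52.

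GASA4, a gibberellin-regulated gene for a small cysteine-rich peptide, was among the most abundant of the 21 loci. Its means were 1193 ± 120 FPKM (SD, n = 3) at 4D, 1111 ± 71.8 at 4D 16H, 768 ± 20.7 at 5D and, at 6D, 875 ± 48.1, with 3 libraries at each of these ages. Its lowest library up to 4D 16H, at 1039 FPKM, lay 12.5% above its highest later library, at 924 FPKM. NLM1, which encodes an aquaporin-like channel of the NOD26 family, had 760, 869 and 949 FPKM up to 4D 16H and 534, 609 and 709 FPKM later. Both genes were at a similar level at all 3 ages up to 4D 16H and at a lower one at each later age.

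The largest ratio of the 21 loci, 2.30, was that of AT5G11930, a thioredoxin superfamily gene of low level. It had 3.102, 4.16 and 4.62 FPKM up to 4D 16H and 1.22, 1.62 and 2.56 FPKM later, and its sides were 21.0% apart. GLP7, a germin-like protein gene, had a ratio of 2.03 but the smallest separation of the 21 loci, 0.212%, with 4.53, 5.85 and 7.52 FPKM against 1.09, 3.05 and 4.52 FPKM. Genes of the cell wall and surface were CSLB01, which belongs to the cellulose synthase-like genes (103, 128 and 158 against 61.4, 72.9 and 94.3 FPKM), and AGP20, an arabinogalactan protein gene (115, 129 and 156 against 74.9, 99.8 and 114 FPKM). FRUCT5, annotated as a beta-fructofuranosidase gene, had the lowest mean of the 21 loci at 1.89 FPKM and a ratio of 1.56. PCME, whose product removes the methyl ester of prenylated cysteine, had 25.1, 27.6 and 30.6 against 17.38, 19.8 and 23.2 FPKM. The remaining loci were CYP71A25 of the cytochrome P450 genes, NVL, AT3G55690, AT1G56630 and AT1G09490, with ratios from 1.198 to 1.72.

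**Figure D2:**
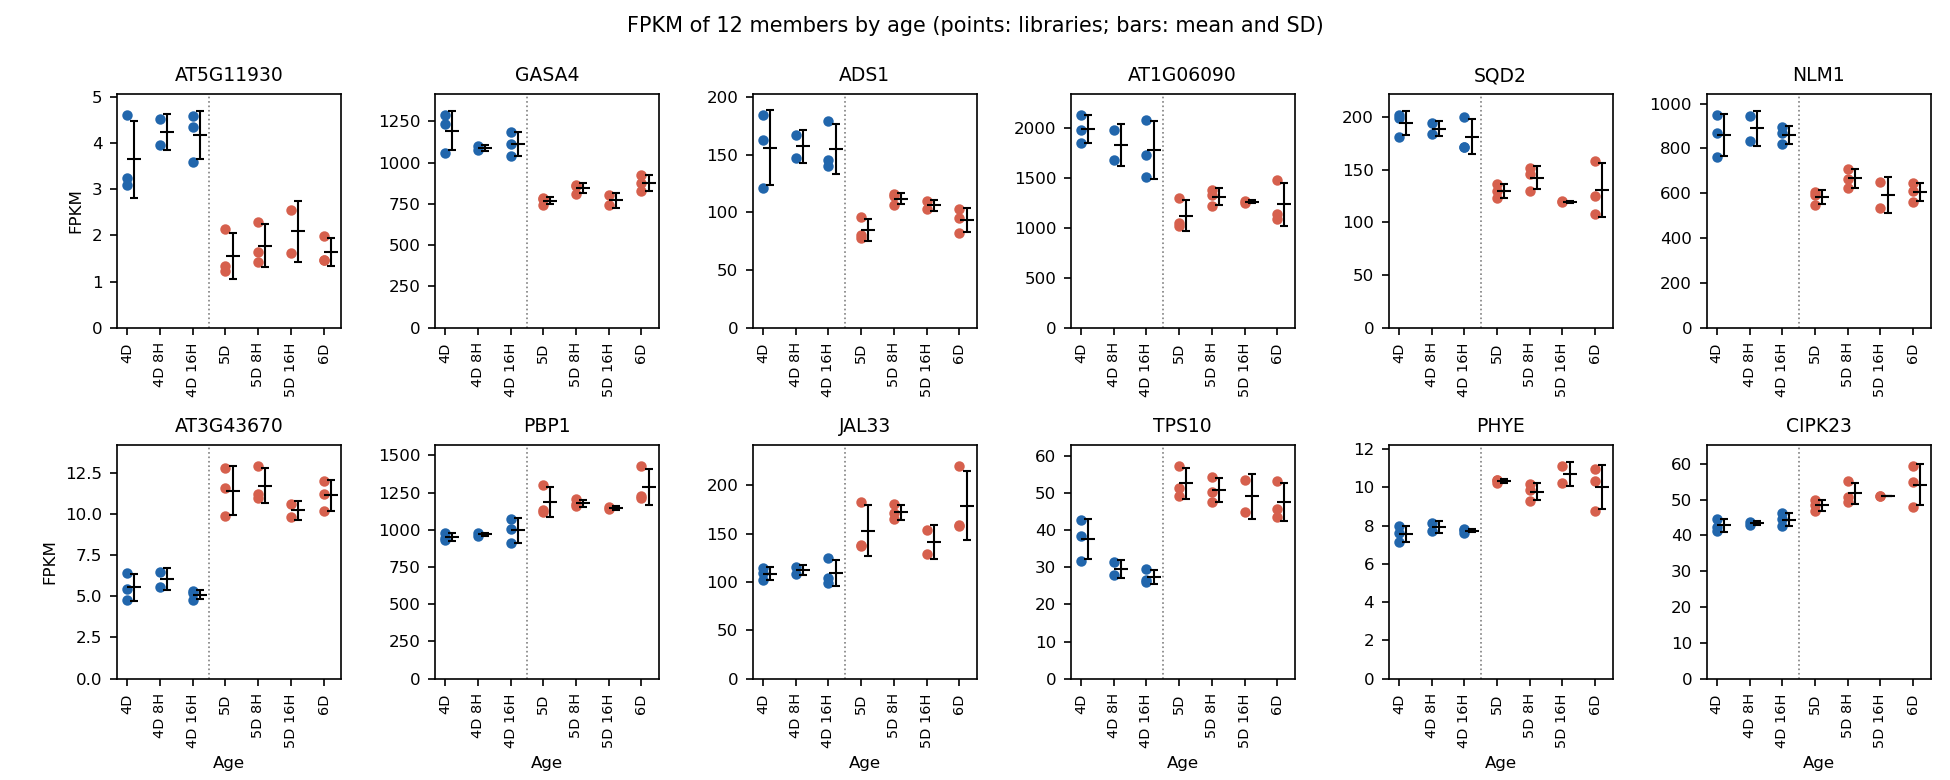
FPKM of 12 of the loci at the 7 ages, with a point per library and bars for the mean and SD, and a dotted line between 4D 16H and 5D. Between 4D 16H and 5D the mean of GASA4 went from 1111 to 768 FPKM and that of AT3G43670 from 5.10 to 11.4 FPKM.

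Among the loci higher from 5D, AT3G43670 stood furthest apart. It encodes a copper amine oxidase, a class of enzymes that oxidise polyamines, and had 4.76, 5.38 and 6.50 FPKM up to 4D 16H and 9.83, 11.2 and 12.9 FPKM later. Its lowest later library lay 51.1% above its highest library up to 4D 16H. The next was AT1G72840, annotated as a resistance protein of the TIR-NBS-LRR class, with 3.95, 5.83 and 6.02 FPKM against 7.62, 9.29 and 9.85 FPKM and a separation of 26.7%. AT5G63020, of the CC-NBS-LRR class, had the lowest mean of the 36 loci, 1.99 FPKM, and a separation of 0.588%. These receptor-type genes are known for the recognition of pathogens.

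The 3 jacalin-related lectin genes were among the most abundant of the 36 loci. PBP1, whose product binds PYK10, had 910, 970 and 1073 FPKM up to 4D 16H and 1120, 1172 and 1430 FPKM later. JAL33 had 98.7, 109 and 125 FPKM against 129, 159 and 220 FPKM, and lies 7259 bases from PBP1 on the plus strand of chromosome 3. AT5G35940 had 314, 328 and 352 FPKM against 407, 496 and 784 FPKM, its 5D mean being 443 ± 47.2 and its 6D mean 622 ± 149 FPKM (SD, n = 3 each). The libraries of AT5G35940 were close together up to 4D 16H and spread widely later.

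Of the genes of carbohydrate metabolism and transport, TPS10 had the largest ratio, 1.58. It encodes a class II trehalose phosphate synthase and had 26.0, 30.5 and 42.7 FPKM up to 4D 16H and 43.5, 50.4 and 57.4 FPKM later. Its mean went from 37.7 ± 5.495 FPKM at 4D to 27.5 ± 1.95 in the 4D 16H libraries, a difference that did not pass the test (log2 difference -0.43, limma, Benjamini-Hochberg adjusted p = 0.062), and was 52.7 ± 4.17 FPKM at 5D (SD, n = 3 each). BMY3, annotated as a beta-amylase gene, had 26.1, 27.4 and 34.9 FPKM against 36.0, 39.2 and 46.9 FPKM. STP7, a sugar transporter gene, had 12.4, 14.5 and 16.5 FPKM against 17.44, 18.5 and 20.3 FPKM. The sides of BMY3 and STP7 were 3.299% and 5.56% apart.

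The signalling and regulatory genes among the 36 loci had small ratios. PHYE, a phytochrome that senses red and far-red light, had 7.14, 7.76 and 8.16 FPKM up to 4D 16H and 8.76, 10.3 and 11.1 FPKM later. OBE2, a PHD finger protein gene with a role in the formation of the root and shoot meristems, had 26.3, 28.6 and 31.8 FPKM against 34.0, 35.7 and 39.9 FPKM. CIPK23, a kinase that acts on potassium and nitrate transporters, had 41.3, 43.4 and 46.2 FPKM against 46.8, 50.7 and 59.4 FPKM, a ratio of 1.18. NF-YC1, a subunit of the CCAAT-binding factor NF-Y, had 4.61, 5.36 and 6.23 FPKM against 6.27, 7.27 and 8.27 FPKM. RMA3, a membrane-anchored ubiquitin ligase gene, and PIRL5, a leucine-rich repeat gene, had ratios of 1.28 and 1.38.

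Of nuclear genes with a link to plastids, CHLM encodes an enzyme of chlorophyll synthesis (2.74, 3.63 and 4.06 against 4.29, 5.13 and 7.30 FPKM). CFM3B is of a family that acts in the splicing of plastid introns (3.14, 3.54 and 3.89 against 4.15, 4.81 and 6.10 FPKM). UPS5, a ureide permease gene, had a ratio of 1.38. The F-box gene AT2G16365 had 14.96, 16.2 and 16.6 FPKM against 17.99, 20.09 and 22.6 FPKM, and AT3G62010, annotated as metal ion-binding, had 85.1, 100.1 and 110 against 119, 135 and 161 FPKM. AT5G65660, a hydroxyproline-rich glycoprotein gene, had 120, 167 and 178 against 187, 215 and 235 FPKM. AT5G63190, which has an MA3 domain, had 15.8, 18.9 and 20.7 against 23.2, 24.4 and 25.6 FPKM. It overlaps AT5G63195, a non-coding RNA gene that is also among the 36 loci, over 2072 bases on the opposite strand, and reads of the 2 cannot be told apart where strand was not used in counting. The other loci, with ratios from 1.17 to 1.85, were AT1G20480, AT3G07690, AT5G26280, AT2G36430, AT4G15545, AT1G78310, AT5G44290, AT3G15430, AT4G02405, AT5G46420, AT3G07310, AT3G19870 and AT2G21840.

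In all, 35 of the 36 loci and 21 of the 21 were protein coding, against 97.1% of all loci tested. Longest transcripts had a median of 1749 bases in the 21 loci, 2005 bases in the 36 loci and 1705 bases over all loci. Another annotated gene overlapped 19 of the 57 loci, in 16 cases on the other strand, and the share over all loci was not computed. Among them, PHYE overlapped AT4G18140 on the same strand, and STP7, BMY3, CHLM and CFM3B overlapped genes on the other strand. The share of reads from overlapping genes in these levels was not tested. Mean levels ran from 1.89 to 1500 FPKM (median 52.8) in the 21 loci and from 1.99 to 1107 FPKM (median 21.4) in the 36 loci.

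The step from 4D 16H to 5D was the main one in both sets. The largest step between successive time-point means was this one in 19 of the 21 and 32 of the 36 loci, against 24.1% of all loci, which the rule favours since its boundary lies there. The median step was -0.56 and 0.40 on the log2 scale, and -0.07 over all loci. Among the 21 loci the lowest mean was reached at 5D in 12 and at 6D in 5. Among the 36 loci the highest mean was reached at 5D 16H in 13, at 6D in 13, at 5D in 6 and at 5D 8H in 4. The means at 5D 16H rest on 2 libraries, of which replicate 2 was shallow, and these ranks were not tested. In CHLM, RMA3 and AT3G15430, 5D 16H replicate 1 was the lowest of the later libraries and replicate 2 the highest, while AT1G20480 was high in both.

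Whether levels also moved within a side was tested with limma on log2(FPKM + 1), with p-values adjusted by the Benjamini-Hochberg method over all loci. The rule used the same values and favours loci with little spread within a side, and the p-values measure the spread between these libraries alone. Among 5D, 5D 8H, 5D 16H and 6D, 0 of the 21 and 4 of the 36 loci changed, against 21.1% of all loci. At an unadjusted p under 0.05 there were 2 and 7. Among 4D, 4D 8H and 4D 16H, 0 of the 21 and 0 of the 36 changed, against 0.171% of all loci, and 0 and 4 had an unadjusted p under 0.05.

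From 5D to 6D, 3 of the 36 loci rose, against 4.24% of all loci, and 0 fell, against 8.67%. None of the 21 loci passed in that contrast, with 3 at an unadjusted p under 0.05, against 6 of the 36. From 4D to 4D 16H none of the 57 loci passed, with 1 of the 21 and 3 of the 36 at an unadjusted p under 0.05, against 0.73% of all loci that rose and 0.299% that fell. The median log2 difference from 5D to 6D was 0.05 in both sets and 0.01 over all loci.

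The locus with the firmest rise from 5D to 6D was AT5G26280, a TRAF-like gene. It had 259 ± 23.3 FPKM at 5D and 381 ± 58.1 FPKM by 6D (mean and SD, n = 3 each), with means of 315 and 311 FPKM in between. The log2 difference was 0.55 (SE 0.10, limma, adjusted p = 0.00228), and it passed with any of the 19 libraries left out, with adjusted p from 0.0022 to 0.0153. AT5G35940 rose by 0.47 (SE 0.13, limma, adjusted p = 0.0295), which reached 0.129 without 6D replicate 1 and passed in 15 of 19 cases. AT3G07310, of the DUF760 genes, rose by 0.55 (SE 0.16, limma, adjusted p = 0.0323), which reached 0.13 without 5D replicate 2. The change among the 4 later ages passed for AT5G26280 (adjusted p = 0.009), AT3G07310 (adjusted p = 0.0415), AT1G20480 (adjusted p = 0.0216) and AT3G07690 (adjusted p = 0.0408, all by limma). AT1G20480, of the AMP-dependent synthetases, stood at 8.67 ± 0.094 FPKM in the 2 libraries of 5D 16H (mean and SD) and at means of 5.57 to 5.81 FPKM at the other later ages, and its adjusted p was 0.102 without 5D 16H replicate 2. AT3G07690 had 21.8 FPKM in that shallow library, its highest value, and an adjusted p of 0.39 without it, and it passed in only 6 of the 19 cases with 1 library left out. For AT3G07310 the change among ages passed in only 7 of the 19 cases, with an adjusted p of up to 0.14 without 6D replicate 1.

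**Figure D3:**
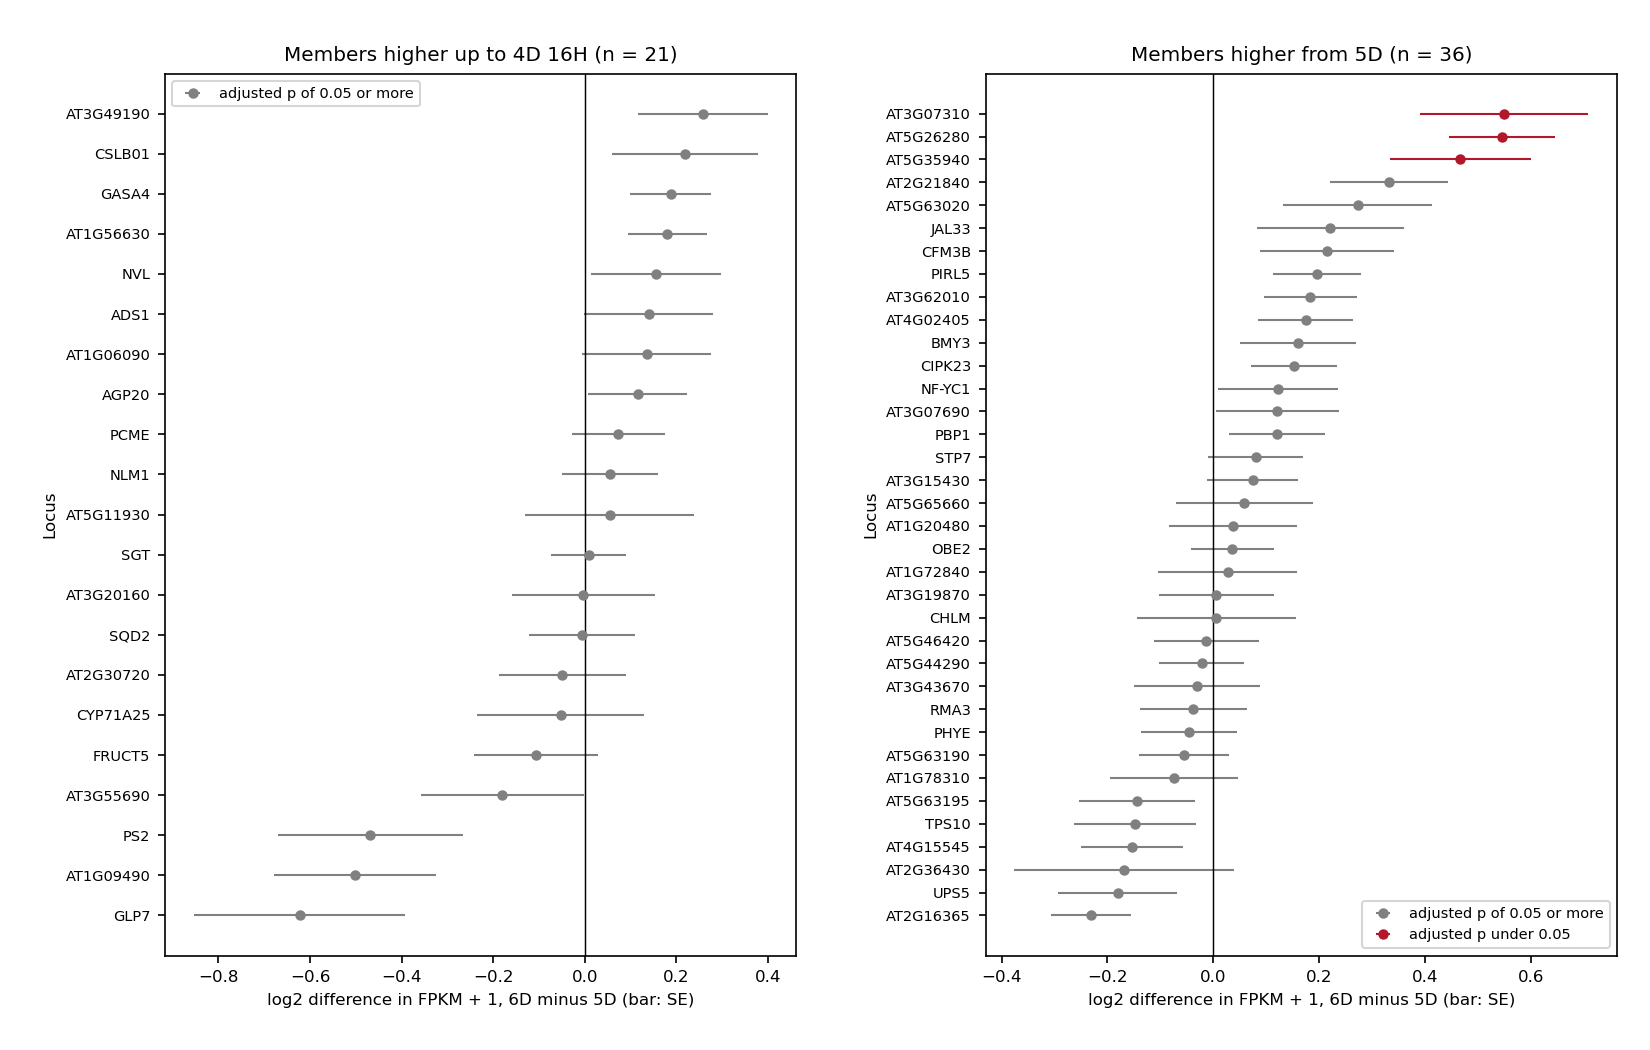
Difference between 6D and 5D for each of the 57 loci, as log2(FPKM + 1) with bars for the SE, for the 21 loci higher up to 4D 16H and the 36 higher from 5D. AT5G26280 lies at 0.55, and 3 loci of the second set and 0 of the first passed the test.

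The genes around these loci were read from lists that were compiled with earlier results known. Levels of genes that were not chosen by the rule were compared between the later ages and the ages up to 4D 16H with limma, in the contrast used for the marker genes. Over all loci tested, the chosen ones included, the split was 1216 higher and 2064 lower as deposited. It was 1651 higher and 1793 lower after quantile normalization. Without the 57 loci it was 1180 higher and 2043 lower as deposited. Of 33 lists, 3 held 1 of the 57 loci each and 30 held none, and 18 further lists were added after the loci were known. These 18 include PYK10 and ER body genes, phosphate starvation genes, class II trehalose phosphate synthases, jacalin-related lectins, desaturases and the smaller gene families.

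Of the sugar starvation genes other than TPS10, 9 of 15 rose and 1 fell, against 6.72% and 11.4% of all loci. Their median log2 difference was 0.41 against -0.04 over all loci. ASN1, an asparagine synthetase gene, rose by 1.07 (SE 0.25, limma, adjusted p = 0.00986), but its libraries overlapped widely, from 14.3 to 126 FPKM up to 4D 16H and from 17.1 to 256 FPKM later. DIN10 rose by 0.82 (SE 0.13, adjusted p = 0.000775) and the bZIP factor gene BZO2H3 by 0.80 (SE 0.10, adjusted p = 0.000208). The call of the 1 gene that fell, EXO, was lost without 5D 16H replicate 2, without 4D replicate 3 and after upper quartile scaling. Of the other 6 class II trehalose phosphate synthase genes, TPS8, TPS9 and ATTPS6 rose by 0.41, 0.44 and 0.32, and TPS5 fell by 0.35 (adjusted p = 0.0488), a call that was lost without 5D 16H replicate 2.

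PBP1 and JAL33 stood among 15 tested genes of PYK10 and the ER body, a list made after the loci were known. Of the other 13 genes, 8 rose and 0 fell, against 6.72% and 11.4% of all loci. PYK10 itself had 1783 to 2106 FPKM up to 4D 16H and 2001 to 2829 FPKM later (log2 difference 0.39, SE 0.06, limma, adjusted p = 0.000709), so that its sides overlapped. NAI2, which is needed to form ER bodies, rose by 0.31, the ER body membrane protein genes MEB1 and MEB2 by 0.36 and 0.33, and the lectin genes JAL34 and JR1 by 0.40 and 0.76. Among 22 other jacalin-related genes tested, 4 rose and 4 fell. MLP-300B, which starts between PBP1 and JAL33, fell by 0.48 (SE 0.09, adjusted p = 0.00177), from a median of 2276 to 1593 FPKM.

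PS2 and SQD2 stood among 27 tested phosphate starvation genes, of which 3 of the other 25 rose and 3 fell, against 6.72% and 11.4% of all loci, and 17 of the 25 had a difference above 0 (median log2 difference 0.07). Those that fell were MGDC, a galactolipid synthase gene (log2 difference -0.85, SE 0.10, limma, adjusted p = 0.000128), PLDP2, a phospholipase D gene (-0.62, adjusted p = 0.00155), and NPC4, a phospholipase C gene (-0.78, adjusted p = 0.00104). Those that rose were the acid phosphatase genes PAP17 and PAP10 and the phosphate transporter gene PHT1;1, and 1 gene of the list rose without 5D 16H replicate 2. In the list of phosphate and sulfate genes, 3 of 20 other than SQD2 rose, 1 fell and 17 had a difference above 0, and 0 rose without 5D 16H replicate 2. Of 5 other desaturase genes, ADS2 fell (-0.59, SE 0.09, limma, adjusted p = 0.000581) and 0 rose. As deposited, no other gene passed among the GASA, beta-amylase, phytochrome, TRAF-like and copper amine oxidase genes tested, which numbered 2, 4, 4, 11 and 4. With upper quartile scaling or quantile normalization, 1 copper amine oxidase gene rose. In addition, 1 TRAF-like gene rose after quantile normalization and 1 GASA gene fell without 4D replicate 3. Other CIPK kinase genes went both ways (1 of 17 rose, 3 fell), as did TIR and CC type resistance genes (3 of 69 rose, 6 fell). The balance of the resistance genes depended on the setting. After quantile normalization 11 rose and 5 fell, and without 5D 16H replicate 2, 7 of 68 rose and 5 fell. Of 4 other STP genes 1 rose. Among other NIP, germin-like and WSD1-like genes, numbering 5, 7 and 4, 1 of each fell as deposited. For the NIP genes the count that fell was 0 without 5D 16H replicate 2, without 4D replicate 3 and after quantile normalization. For the germin-like genes it was 0 under upper quartile scaling and under quantile normalization.

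The rule is strict, and many loci stood just outside it. With 1 library left out, 117 further loci were higher up to 4D 16H and 124 further loci higher from 5D, and for 76 of them leaving out 4D replicate 3 was enough. TPS9 and TPS8 were 2 of the 3 closest misses of the second kind. TPS9 had 48.45 FPKM in 4D replicate 3 against 48.18 FPKM in 5D 16H replicate 1, and TPS8 had 87.55 FPKM in 4D replicate 3 against 86.63 FPKM in the shallow 5D 16H replicate 2, so that for either gene leaving out either of its libraries separated the sides. AT2G43535 missed with 310.6 FPKM in 4D replicate 2 against 308 FPKM. Of the first kind the closest were AT3G57800 (15.77 against 15.78 FPKM), AT5G17210 (9.592 against 9.612 FPKM) and AT5G05240 (4.213 against 4.223 FPKM). Just inside were AT2G21840, with sides 0.0332% apart (19.27 and 19.28 FPKM), AT5G63195 (0.0418%), AT3G19870 (0.128%), AT3G07310 (0.189%) and GLP7. The sides were less than 5% apart in 9 of the 21 and 23 of the 36 loci. The floor of 1 FPKM kept out FLC (mean 0.739 FPKM), the terpene synthase gene TPS13 (0.471 FPKM) and CYP71B12 (0.196 FPKM), which otherwise met the rule.

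**Figure D4:**
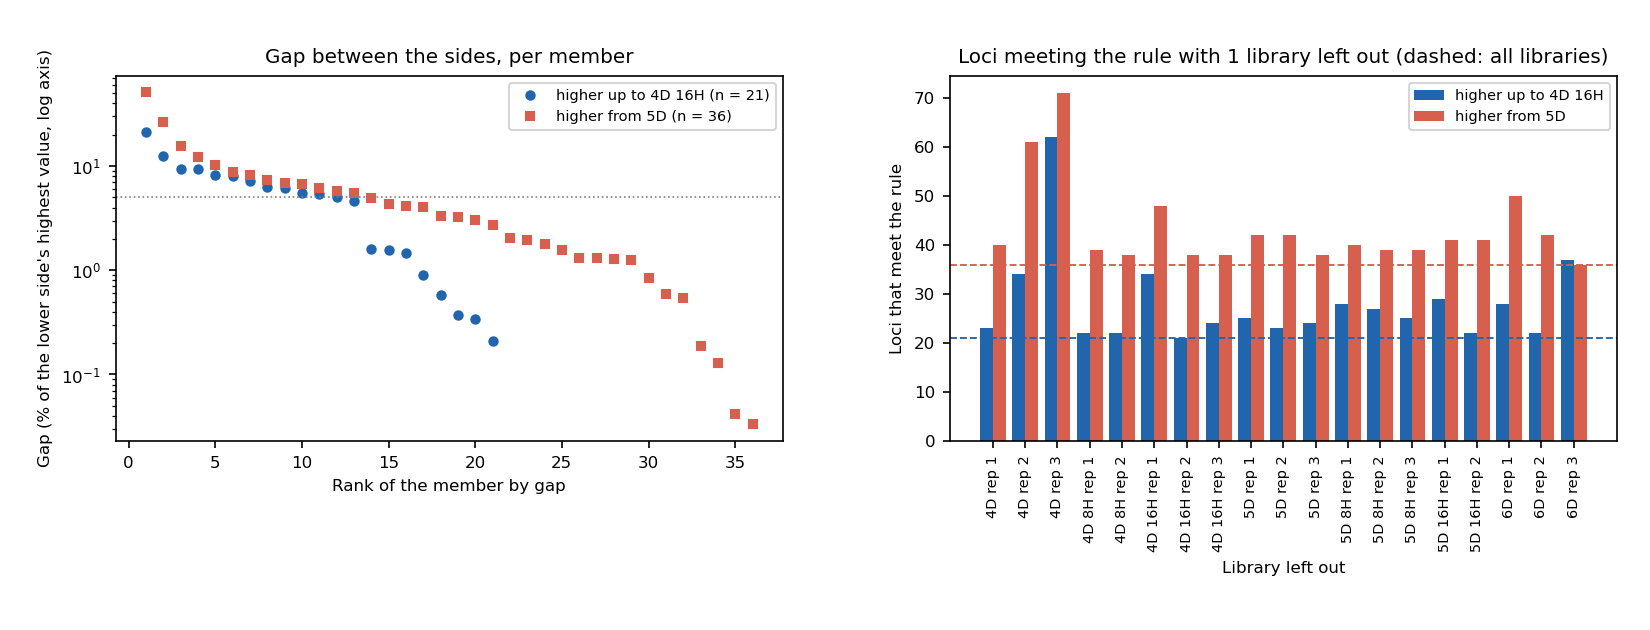
Left, separation of the sides for each of the 57 loci, as a percentage of the lower side's highest value on a log axis, ranked within each set, with a dotted line at 5%. Right, number of loci that met the rule with each library left out in turn, which reached 62 and 71 without 4D replicate 3 against 21 and 36 (dashed) with all libraries.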

How the data were processed

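RNA was sequenced from GFP-negative cells in 19 libraries at 7 ages. The deposited values are FPKM, which the authors made from single-end reads. The submitters' processing notes name TAIR10, TopHat and Cufflinks, and the study's methods name Bowtie, Tuxedo and Rsubread. Versions, the annotation and the use of strand in counting are not given in the sources used here. FPKM hides depth, which was estimated, and since whole reads (within 0.05) came out for only 29.1 to 50.2% of low values, no count test was run.

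Loci were kept from a mean of 1 FPKM upward. Tests used limma (3.58.1, run in R, 4.3.3) with log2(FPKM + 1), which understates changes of low genes, with 1 mean per age over all 19 libraries and Benjamini-Hochberg adjustment (threshold 0.05), and were tested on simulated data. The 57 loci and all lists were chosen with earlier results of these data known, and the contrast of later ages with ages up to 4D 16H was added after seeing the data. Loci were named by separation, level, test, list and neighbourhood. Names, positions and sequences came from RefSeq (TAIR10.1), which matched 32489 loci and all 57. Same-numbered libraries did not deviate together (median r = 0.004 over 52 pairs), so numbers were not taken as pairs. Alternatives were other scalings, filters, pseudocount, sample weights, a replicate block and leaving out libraries.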

Additional observations from a re-analysis of the deposited data

How the results depend on the processing

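Leaving out 1 library at a time gave 21 to 62 loci higher up to 4D 16H and 36 to 71 higher from 5D. The 57 loci meet the rule in each of these cases by construction, so that only additions are possible. The counts were 34 and 61 without 4D replicate 2, 62 and 71 without 4D replicate 3, and, for the first set, 34 without 4D 16H replicate 1 and 37 without 6D replicate 3. In alternatives chosen after seeing the data, 57 loci were higher from 5D without the 5D 16H age, and leaving out 4D replicate 3 and 5D 16H replicate 2 together gave 70 and 76. Upper quartile scaling gave 27 (17 of the 21 kept) and 30 (29 of the 36 kept), quantile normalization gave 23 (15 kept) and 32 (26 kept), and 14 of the 21 and 24 of the 36 separated under both scalings.

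The 4 loci changing among 5D to 6D became 2 without a filter on low values, 2 with a replicate block and 1 with only the ages compared, and ranged from 1 to 6 with 1 library left out. The block gave 0, 3 and 0 in the other tests. Sample weights gave 3 loci changing among 4D to 4D 16H in place of 0, 7 differing between 5D and 6D in place of 3, and 3 differing between 4D and 4D 16H in place of 0. With 1 library left out these ranged from 0 to 0, from 1 to 7 and from 0 to 2. The difference between 5D and 6D passed for 1 locus without 5D replicate 1, 5D replicate 2, 6D replicate 1 or 6D replicate 2, and for 7 without either library of 5D 16H. The cause of these shifts was not tested. Precision is limited by the 2 or 3 libraries per age and by the low depth of 5D 16H replicate 2.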
